A study of Mus musculus with 20 samples.

Results

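The transcripts described here are those of the YAP/TEAD arm of the Hippo pathway, followed as mouse extraembryonic endoderm (XEN) cells were reprogrammed to induced pluripotent stem (iPS) cells and as embryonic stem (ES) cells were driven the other way, to induced XEN (iXEN) cells. The 10 genes were taken by symbol, as 5 regulators (Yap1, Wwtr1, Tead1, Tead2 and Tead4) and 5 genes known as targets of the pathway (Lats2, Ctgf, Cyr61, Ankrd1 and Amotl2). They were chosen with earlier results of these data known. Shares of all genes given beside counts of them are therefore description only. All 10 were found among the 22936 gene symbols of the single-cell count files, and all 10 passed the filter on low counts that left 16720 genes to be tested. Ankrd1 had no column in either 9h file. Because no column of any file summed to 0, Ankrd1 was taken as 0 UMIs (unique molecular identifiers, each counting 1 captured transcript) in those libraries.

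In the Hippo pathway, the kinases LATS1 and LATS2 phosphorylate the co-activators YAP (Yap1) and TAZ (Wwtr1), which holds them outside the nucleus or marks them for degradation. Unphosphorylated YAP and TAZ enter the nucleus and act through the TEAD proteins, which bind DNA, so that transcripts of Ctgf, Cyr61, Ankrd1 and Amotl2 are widely used as readouts of the pathway. Lats2 and Amotl2 also feed back, since LATS2 is a YAP/TAZ kinase and the angiomotin family, to which AMOTL2 belongs, binds and retains YAP. In the mouse blastocyst the pathway is best known for the choice between trophectoderm, where TEAD4 with nuclear YAP is active, and the inner cell mass, from which the primitive endoderm and the epiblast arise. XEN and ES cells are the cell lines that correspond to the latter 2 lineages. RNA counts do not measure where YAP and TAZ are in the cell or how far they are phosphorylated.

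The 20 libraries were 10 conditions in technical duplicate, so p-values measure technical spread only. The XEN-to-iPS series used 1 line, 3F-4 XEN (homozygous for Oct4-GFP Tg/Tg, for M2rtTA/M2rtTA at R26 and for TetO-OKSmCh/TetO-OKSmCh at Col1A1), in which doxycycline induces Oct4, Klf4 and Sox2. It comprised XEN cells before induction, cells given doxycycline until day 7, until day 14 or until day 28 with ascorbic acid and a GSK3β inhibitor, and the derived XEN-iPS cells. The ES-to-iXEN series used another line, iGata4-Gata6-Venus (Col1A1 TetO-Gata4/+, R26 M2rtTA/+ and Gata6 H2B-Venus/+), in which doxycycline induces Gata4 from a cassette that the study's methods name TetO-Gata4-mCherry. It comprised ES cells, cells at 9h, 24h and 48h of Gata4 induction, and iXEN cells cultured on after doxycycline was withdrawn. The M2rtTA transactivator and an inducible cassette were thus carried by every condition, the starting cells included. XEN cells were grown on feeder fibroblasts in the reprogramming medium without doxycycline. By the study's methods, cells to be reprogrammed were first sorted for mCherry, the reporter of the cassette. They were plated on feeders, as XEN-iPS cells were later, while the ES-to-iXEN series was plated on gelatin. Cells of day 7, day 14, day 28 and 9h were sorted by markers into fractions and recombined. Shares of cells and summed levels in these conditions therefore partly reflect the sorting and mixing.

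The labels held against defining markers. Summed endoderm markers (14 genes) stood at 14760 and 13840 CPM in XEN and 15100 and 18950 in iXEN against 132 and 165 in ES, and summed pluripotency markers (12 genes) at 8467 and 6993 in ES and 10290 and 9928 in XEN-iPS against 22.4 and 35.7 in XEN. Here and below, a pair of values gives replicate 1 and replicate 2 in that order, and CPM is counts (UMIs) scaled to a common library total, adjusted by edgeR's trimmed mean of M values (TMM). Of 134279 deposited cells, 20991 with fewer than 500 genes and 6220 in clusters of fibroblast-like, 2-cell-like or, in ES, differentiating-like cells, or in unnamed clusters with fibroblast markers, were left out, and 107068 were kept. A kept library held between 45441029 and 123843873 UMIs, with a median per cell of 7394.5 to 29828. At most 1.67% of a library's barcodes also occurred in another library. For 76 of the 98 member and condition pairs with UMIs in both duplicates, the higher duplicate was under 1.5 times the lower. The widest gaps were for Ankrd1 (for example 43.8 and 206 CPM in XEN), followed by Tead4 in iXEN and by Ctgf in XEN-iPS, in iXEN and at day 28. The names of the deposited data hold a project number, called the sequencing project here. What the number stands for is not stated in the sources used here. XEN, day 28 and ES carried 1 project number and the other conditions 3 others. The duplicates of XEN-iPS, of 24h and of 48h were each split between 2 projects. As a result, project and condition cannot be told apart in 9 of the 13 comparisons below.

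Promoters of the targets are shown because these genes were followed as targets of the pathway, and TEAD proteins bind the motif GGAATG. The search covered regulators and targets. Windows from 250 bases before to 50 bases after a start site were taken from RefSeq (GRCm38.p6), the same build as the mm10 genome of the study. Of the 10 genes, 7 had a window or more, 9 windows in all, and the search did not cover Ctgf, Tead1 or Tead4. GGAATG was held on either strand by 7 of these 9 windows, beside 4817 (14.7%) of all 32851 windows of this length, with 1 site counted in both overlapping windows of Wwtr1. By gene, 6 of the 7 (Yap1, Wwtr1, Lats2, Cyr61, Ankrd1 and Amotl2, not Tead2) had a window with the motif, beside 4481 of 27025 genes. The AP-1 motif TGANTCA, searched on both strands in the same way, was in none of the member windows and in 7.81% of all windows, so no match of one motif overlapped the other. The windows of the targets with the motif follow, 5′ to 3′ on the gene's strand, with GGAATG or its reverse complement in capitals. A match is a stretch of letters and not a measured binding site.
Cyr61 (chr3:145649936-145650235, minus strand): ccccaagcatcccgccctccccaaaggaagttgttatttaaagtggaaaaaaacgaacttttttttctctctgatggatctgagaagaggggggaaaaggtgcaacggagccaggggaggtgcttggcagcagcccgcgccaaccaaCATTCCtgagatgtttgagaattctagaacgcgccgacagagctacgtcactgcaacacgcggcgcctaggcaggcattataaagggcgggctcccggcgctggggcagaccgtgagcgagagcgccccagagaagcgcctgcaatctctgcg
Ankrd1 (chr19:36119795-36120094, minus strand): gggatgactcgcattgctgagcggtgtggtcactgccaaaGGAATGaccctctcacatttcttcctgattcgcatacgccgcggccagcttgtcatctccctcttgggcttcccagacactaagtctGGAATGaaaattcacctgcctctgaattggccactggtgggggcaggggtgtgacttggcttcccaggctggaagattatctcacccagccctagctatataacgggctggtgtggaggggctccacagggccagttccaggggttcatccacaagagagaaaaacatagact
Amotl2 (chr9:102717554-102717853, plus strand): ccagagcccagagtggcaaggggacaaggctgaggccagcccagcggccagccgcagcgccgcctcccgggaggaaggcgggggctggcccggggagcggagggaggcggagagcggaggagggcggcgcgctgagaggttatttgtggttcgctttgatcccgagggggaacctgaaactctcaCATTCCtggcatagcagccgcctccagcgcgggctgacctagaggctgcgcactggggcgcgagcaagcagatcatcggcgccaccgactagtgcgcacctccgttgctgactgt
Lats2, the start site nearer its 5′ end (chr14:57746074-57746373, minus strand): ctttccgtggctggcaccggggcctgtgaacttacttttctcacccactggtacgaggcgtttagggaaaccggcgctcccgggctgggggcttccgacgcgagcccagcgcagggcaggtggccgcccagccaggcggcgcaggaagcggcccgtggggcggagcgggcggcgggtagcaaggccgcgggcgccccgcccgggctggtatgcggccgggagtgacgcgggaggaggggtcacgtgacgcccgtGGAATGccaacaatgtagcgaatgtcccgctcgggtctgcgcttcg

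The motif began 103 bases before the start site in Cyr61, 65 bases before it in Amotl2, and 4 bases after it in Lats2. Ankrd1 held it at 210 and at 123 bases before. By the GENCODE vM21 annotation of GRCm38, Ctgf lies on chromosome 10 from 24595442 to 24598683, Cyr61 on chromosome 3 from 145646976 to 145649981 and Ankrd1 on chromosome 19 from 36111961 to 36120099. Amotl2 lies on chromosome 9 from 102716672 to 102733418 and Lats2 on chromosome 14 from 57689662 to 57758388. The windows shown for Ankrd1, Amotl2 and Lats2 lie within these annotated genes. The outermost annotated starts of these genes fall outside the windows and were not searched.

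The start cells of the conversions were compared first, to show which members differed between these lines. ES cells carried far less of all 5 targets, and of Tead1 and Tead4, than XEN cells. The secreted matricellular protein gene Ctgf stood at 491 and 445 CPM in XEN and 5.4 and 6.15 in ES (log2 fold change -6.34 ± 0.67 SE, adjusted p = 1.35e-06). Its relative Cyr61 stood at 191 and 292 against 5.04 and 6.61 CPM (log2 fold change -5.37 ± 0.50 SE, adjusted p = 3.61e-07). In both genes every XEN library was far above every ES library.

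Ankrd1, which encodes a nuclear ankyrin-repeat protein, stood at 43.8 and 206 CPM in XEN and at 38 and 0 UMIs in all in ES, or 0.369 and 0 CPM (log2 fold change -9.45 ± 1.52 SE, adjusted p = 0.000105). Amotl2 stood at 123 and 140.2 CPM against 14 and 17.6 (log2 fold change -3.06 ± 0.22 SE, adjusted p = 3.27e-08), and Lats2 at 18.6 and 19.7 against 1.98 and 2.29 (log2 fold change -3.16 ± 0.26 SE, adjusted p = 9.49e-08). The XEN duplicates differed 4.70-fold in Ankrd1 and by much less in the other targets. Among the DNA-binding partners, Tead1 stood at 95.4 and 94.3 CPM in XEN against 25.4 and 28.9 in ES (log2 fold change -1.80 ± 0.24 SE, adjusted p = 1.33e-05) and Tead4 at 30.6 and 32.7 against 8.37 and 9.39 (log2 fold change -1.83 ± 0.38 SE, adjusted p = 0.000694). These 7 of 10 members were called lower in ES, where called means an adjusted p under 0.05 and a change of at least 2-fold, beside 22.2% of all genes tested called lower, 23.5% called higher and 45.7% in either direction.

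The co-activators themselves and Tead2 differed less. Yap1 stood at 53.1 and 45.1 CPM in XEN and 27.4 and 34.3 in ES, a log2 fold change of -0.67 ± 0.22 (adjusted p = 0.0167) that passed the test but not the limit of 2-fold. Wwtr1 stood at 22.7 and 21.9 against 13.2 and 15.2 CPM (log2 fold change -0.65 ± 0.28, adjusted p = 0.0614), and Tead2 at 64.5 and 57.5 against 57 and 46.6 CPM (log2 fold change -0.24 ± 0.29, adjusted p = 0.501). XEN and ES shared a sequencing project, and all 7 calls held under each of the 15 alternative analyses. The lines differ in origin and in culture, with feeders, ascorbic acid and the GSK3β inhibitor for XEN alone. These differences cannot be told apart from the state of the cells. Over the 10 members the median log2 fold change was -2.45, beside 0.03 over all genes tested.

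**Figure D1:**
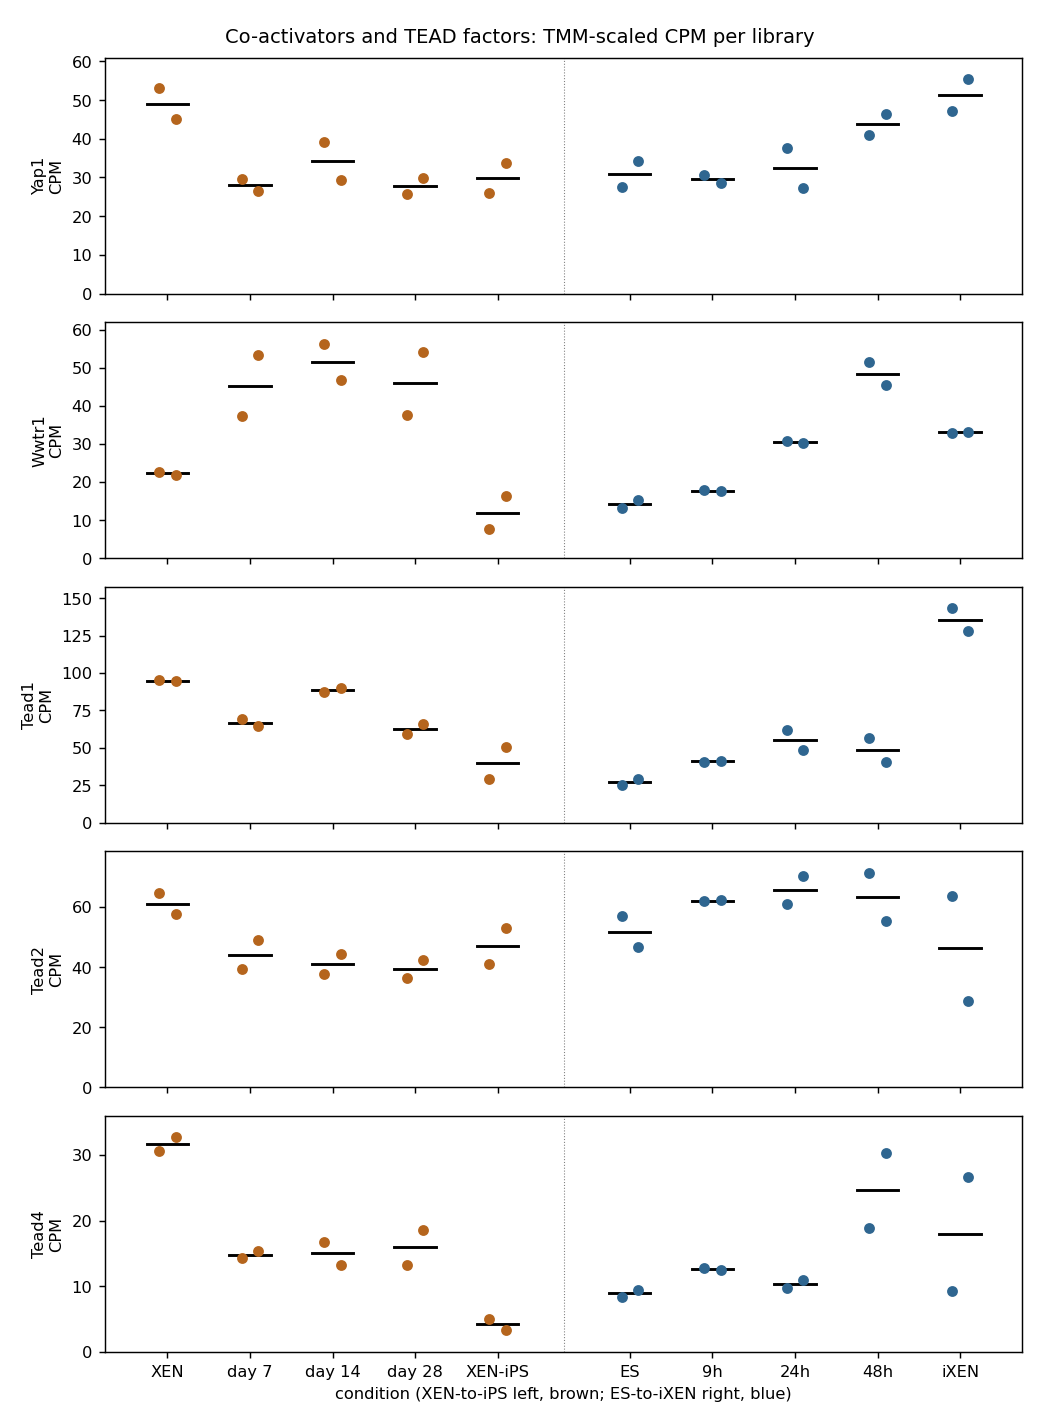
Level of each co-activator and TEAD gene (y axis, TMM-scaled CPM) in each of 20 libraries (points) by condition (x axis); the bars are means of the technical duplicates. Wwtr1 is low in XEN, highest at day 14 and low again in XEN-iPS, and Tead1 is highest in iXEN, while Yap1 stays between 25.9 and 55.4 CPM throughout.

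In the XEN-to-iPS conversion, the question was when the endoderm levels of these genes were left behind. At day 7 of reprogramming, the feedback genes had already fallen. Amotl2 stood at 42.9 and 37.9 CPM against 123 and 140.2 in XEN (log2 fold change -1.70 ± 0.21 SE, adjusted p = 8.12e-05). Lats2 stood at 8.86 and 7.54 against 18.6 and 19.7 CPM (log2 fold change -1.22 ± 0.24 SE, adjusted p = 0.00192). Tead4, the TEAD gene known for its part in trophectoderm, fell to 14.3 and 15.3 CPM (log2 fold change -1.09 ± 0.37 SE, adjusted p = 0.04).

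Wwtr1 went the other way and rose to 37.4 and 53.2 CPM from 22.7 and 21.9 (log2 fold change 1.02 ± 0.28 SE, adjusted p = 0.016). Called were thus 1 member higher and 3 lower, beside 11.6% and 6.85% of all genes tested. Ctgf, at 170.0 and 181 CPM, and Ankrd1, at 15.4 and 19.3, lay below both XEN libraries without passing the test (adjusted p = 0.0655 and 0.0682). The count of 4 fell to 2 without XEN replicate 1, without XEN replicate 2, without day 7 replicate 2 or with the left-out clusters kept. Amotl2 was called under each of the 14 alternatives, Lats2 under all but the one that kept those clusters, while Tead4 was not called without any 1 of the 4 libraries. The call on Wwtr1, just past the limit of 2-fold, was lost without XEN replicate 1, without XEN replicate 2, without day 7 replicate 2 and with counts scaled by their totals alone. Summed fibroblast markers were at 22.5 and 9.55 CPM at day 7, 15 and 17.8 at day 14, 18.6 and 11.3 at day 28 and 3.32 and 4.47 in XEN, and their part in these comparisons was not tested. None of the day 7 libraries shared a sequencing project with XEN.

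At day 14, 1 member was called higher and 5 lower, beside 12.6% and 5.86% of all genes. Wwtr1 reached 56.3 and 46.8 CPM (log2 fold change 1.21 ± 0.29 SE, adjusted p = 0.00648). Ctgf had fallen to 88.4 and 69.3 CPM (log2 fold change -2.57 ± 0.56 SE, adjusted p = 0.00404) and Ankrd1 to 6.02 and 14.3 CPM (log2 fold change -3.62 ± 1.13 SE, adjusted p = 0.0305). The level of Lats2 was 5.84 and 6.5 CPM (log2 fold change -1.63 ± 0.24 SE, adjusted p = 0.000262).

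Amotl2 was at 45.3 and 43 CPM, close to day 7 (log2 fold change -1.57 ± 0.21 SE, adjusted p = 0.000105), and Tead4, at 16.7 and 13.3 CPM, was also near its day 7 level. Tead1 was close to XEN again, at 87.6 and 89.6 CPM against 95.4 and 94.3. The count of 6 dropped to 3 without XEN replicate 2 or without day 14 replicate 2. Amotl2 and Lats2 were called under every alternative, Ctgf under all but the one without day 14 replicate 2 and Wwtr1 under all but the one without XEN replicate 2, while Ankrd1 and Tead4 each lost the call under 5 of 14.

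Day 28 shared its sequencing project with XEN. Here Lats2 was at 4.12 and 6.61 CPM (log2 fold change -1.84 ± 0.24 SE, adjusted p = 4.04e-05), Ctgf at 53.8 and 146 (log2 fold change -2.23 ± 0.55 SE, adjusted p = 0.00514) and Ankrd1 at 3.05 and 14 (log2 fold change -3.88 ± 1.14 SE, adjusted p = 0.015). Amotl2 stood at 37.2 and 51.2 CPM (log2 fold change -1.57 ± 0.21 SE, adjusted p = 4.13e-05). The duplicates differed 2.71-fold in Ctgf and 4.60-fold in Ankrd1, with replicate 2 higher in both.

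Wwtr1 stayed high at 37.7 and 54 CPM (log2 fold change 1.04 ± 0.28 SE, adjusted p = 0.00924). These were 1 member called higher and 4 lower, beside 21.6% and 8.96% of all genes, so that the single member called higher is a smaller share than among all genes. Yap1, at 25.9 and 29.9 CPM, was lower than XEN by less than 2-fold (-0.82 ± 0.22 on the log2 scale, adjusted p = 0.00837). Without XEN replicate 2 or without day 28 replicate 1, 3 members were called. Amotl2 and Lats2 were called under each of the 15 alternatives. Wwtr1 was not called without XEN replicate 2 or day 28 replicate 2, Ankrd1 without XEN replicate 2 or day 28 replicate 1, and Ctgf without day 28 replicate 1.

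The level of Cyr61 was 191 and 292 CPM in XEN, 106 and 155 at day 7, 81.8 and 176 at day 14 and 162 and 149 at day 28, so that it lay below both XEN libraries at each of these times, with a fitted change of less than 2-fold that was not called (adjusted p = 0.13, 0.124 and 0.236). Its change was not tested against that of Ctgf. Immediate early genes, which respond within minutes to serum or to the handling of cells, are given beside it. Their summed level (12 genes) was 424 and 675 CPM in XEN, 536 and 766 at day 7, 777 and 1411 at day 14 and 1625 and 1278 at day 28. The day 14 library with the more Cyr61 also had the more immediate early RNA. The study reports that Jun, Fos and Atf3, which are on the immediate early list, were raised in a XEN-like end state of this reprogramming. The part of the immediate early genes in the level of Cyr61 was not tested.

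In XEN-iPS cells, 7 members were called lower than in XEN and none higher, beside 20.5% and 26% of all genes, 46.5% in either direction. Cyr61 was now called, at 22.6 and 8.97 CPM (log2 fold change -3.93 ± 0.46 SE, adjusted p = 4.66e-06). Ctgf stood at 27.3 and 9.73 CPM (log2 fold change -4.66 ± 0.62 SE, adjusted p = 1.45e-05) and Ankrd1 at 0.835 and 6.84 (log2 fold change -5.04 ± 1.21 SE, adjusted p = 0.00266). Every XEN library was far above every XEN-iPS library in all 3 genes.

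Amotl2 stood at 16.2 and 12.7 CPM (log2 fold change -3.19 ± 0.22 SE, adjusted p = 4.12e-08), Lats2 at 2.92 and 2.89 (log2 fold change -2.72 ± 0.25 SE, adjusted p = 4.89e-07) and Tead4 at 5.04 and 3.35 (log2 fold change -2.91 ± 0.40 SE, adjusted p = 1.78e-05). Tead1 was also called, at 29.4 and 50.5 CPM (log2 fold change -1.25 ± 0.24 SE, adjusted p = 0.000358). Wwtr1, raised through day 28, was at 7.63 and 16.3 CPM, below XEN (-0.90 ± 0.29 on the log2 scale, adjusted p = 0.0137). With all left-out clusters of every condition kept in together, 4 members were called, and Lats2 (0.21 ± 0.50, adjusted p = 0.749) and Wwtr1 (0.10 ± 0.35, adjusted p = 0.839) changed sign. In XEN-iPS these clusters were fibroblast-like, 2-cell-like or unnamed with fibroblast markers, and they were not put back one by one. Tead1 was not called without XEN-iPS replicate 1.

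**Figure D2:**
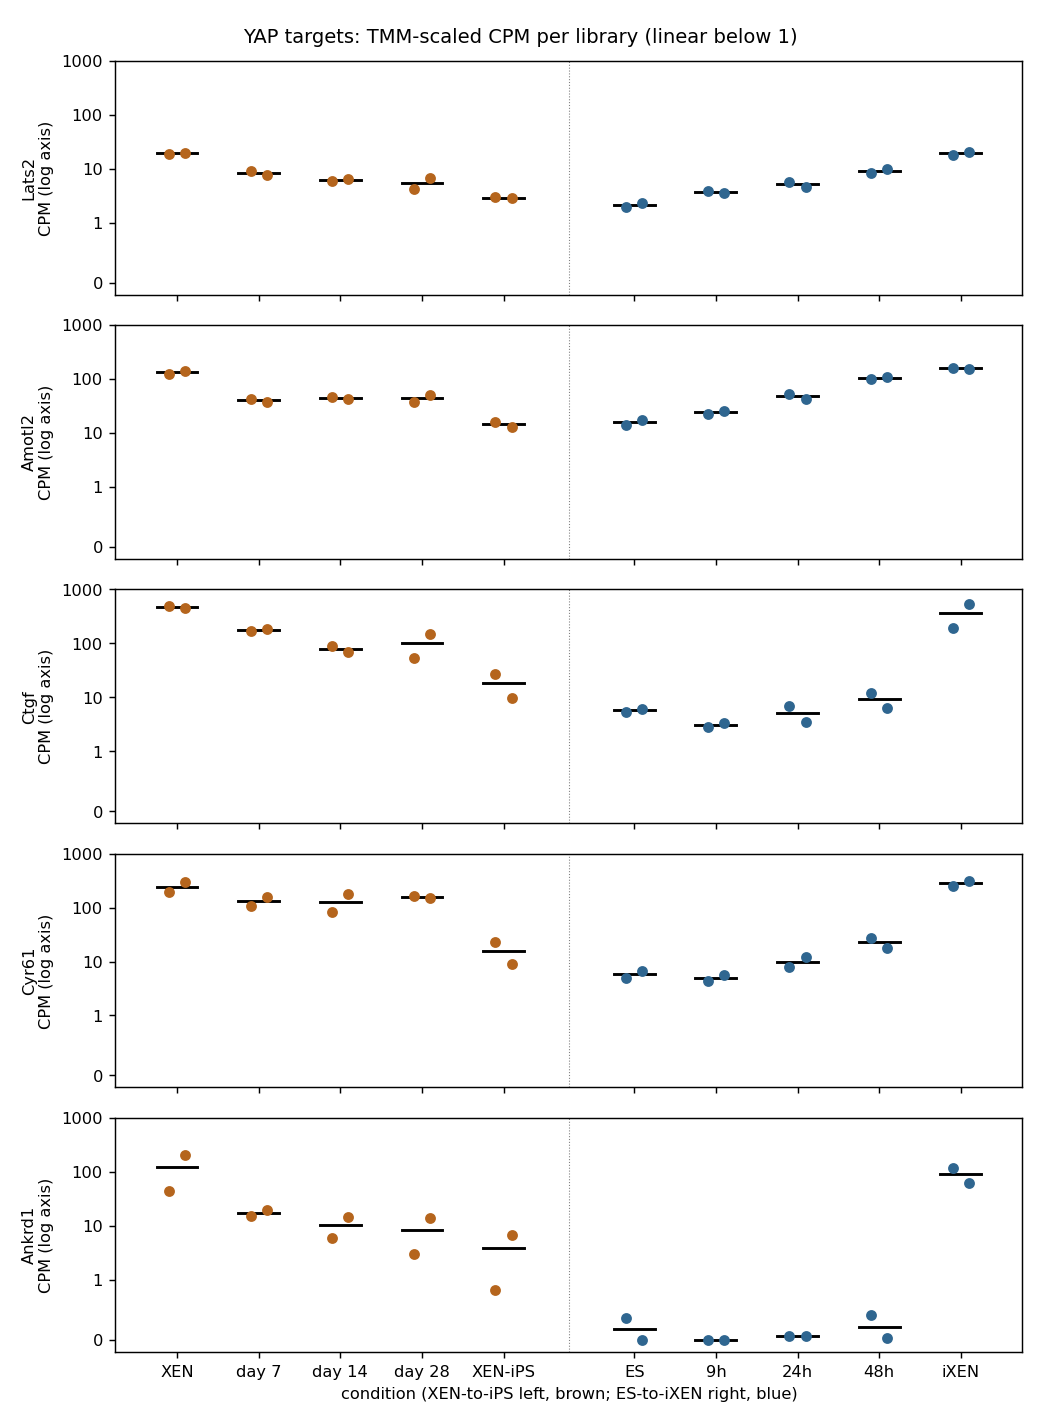
Level of each target (y axis, TMM-scaled CPM, logarithmic above 1 and linear below) in each of 20 libraries (points) by condition (x axis); the bars are means of the technical duplicates. The means of Lats2 and Amotl2 are higher at each time from ES to iXEN, although not every step was called, whereas Ctgf and Ankrd1 stay near their ES levels to 48h and are high only in iXEN.

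In the ES-to-iXEN conversion, the members did not rise together. At 9h of Gata4 induction no member was called by edgeR, beside 5.69% of all genes (2.64% higher and 3.04% lower), although 3 had an unadjusted p under 0.05 and DESeq2 called Ankrd1 lower. Amotl2 stood at 22.6 and 25.2 CPM against 14 and 17.6 in ES (adjusted p = 0.0898) and Lats2 at 3.89 and 3.46 against 1.98 and 2.29 (adjusted p = 0.0625). Ctgf stood at 2.86 and 3.28 CPM against 5.4 and 6.15 in ES (adjusted p = 0.337). Ankrd1 had 0 UMIs in both 9h libraries, which allows up to 3 counts in each, or 0.0267 and 0.0287 CPM.

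At 24h, 4 members were called higher and none lower, beside 7.67% and 3.85% of all genes. Amotl2 had risen to 52.6 and 42.5 CPM (log2 fold change 1.59 ± 0.21 SE, adjusted p = 0.000136) and Lats2 to 5.65 and 4.59 (log2 fold change 1.26 ± 0.24 SE, adjusted p = 0.00278). Both 24h libraries were above both ES libraries in each. Wwtr1 rose to 30.6 and 30.1 CPM from 13.2 and 15.2 (log2 fold change 1.1 ± 0.29 SE, adjusted p = 0.018) and Tead1 to 61.7 and 48.4 from 25.4 and 28.9 (log2 fold change 1.02 ± 0.24 SE, adjusted p = 0.00915).

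The secreted targets were not called at 24h. Ctgf stood at 6.73 and 3.53 CPM, with 1 library on each side of the ES level, and Cyr61 at 8.02 and 12 CPM against 5.04 and 6.61 (adjusted p = 0.234). Without ES replicate 1, 1 of the 4 calls was made, and without ES replicate 2 or 24h replicate 1, 2 were. Wwtr1 was not called without any 1 of the 4 libraries. The count was 0 with all left-out clusters kept in, the differentiating-like cells of ES among them. Those ES cells held 284 and 47.3 CPM of Cyr61 without TMM scaling, against 5.04 and 6.48 in the kept cells. The duplicates differed in the other targets. In replicate 1 they held 132 CPM of Amotl2 against 14 in the kept cells and 26.3 CPM of Lats2 against 1.98. In replicate 2 they held 39.1 CPM of Amotl2 against 17.2 and 2.85 CPM of Lats2 against 2.25, a much smaller excess.

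By 48h, Amotl2 was at 101 and 107 CPM (log2 fold change 2.72 ± 0.22 SE, adjusted p = 3.99e-07), Lats2 at 8.23 and 9.9 (log2 fold change 2.08 ± 0.25 SE, adjusted p = 1.24e-05) and Wwtr1 at 51.5 and 45.4 (log2 fold change 1.77 ± 0.29 SE, adjusted p = 0.000217). These 3 calls were made under each of the 14 alternatives. Cyr61 had risen to 27.2 and 17.8 CPM (log2 fold change 1.95 ± 0.43 SE, adjusted p = 0.00222) and Tead4 to 18.9 and 30.3 (log2 fold change 1.47 ± 0.37 SE, adjusted p = 0.00561). Without ES replicate 1 or 48h replicate 2 Tead4 was not called, and with all left-out clusters kept Cyr61 was not. Called were 5 members higher and none lower, beside 18% and 13.1% of all genes.

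Ctgf stood at 12 and 6.2 CPM at 48h (adjusted p = 0.353) and Ankrd1 at 22 and 2 UMIs, or 0.415 and 0.0249 CPM. Both were thus far below XEN cells (491 and 445 CPM of Ctgf and 43.8 and 206 of Ankrd1) in libraries where Amotl2 was at 101 and 107 CPM against 123 and 140.2 in XEN. Immediate early genes summed to 338 and 102 CPM at 48h against 273 and 341 in ES. Between 24h and 48h, 2 members were called higher, Amotl2 (log2 fold change 1.13 ± 0.21 SE, adjusted p = 0.00314) and Tead4 (log2 fold change 1.25 ± 0.37 SE, adjusted p = 0.0422), beside 5.26% of all genes called higher, 3.63% lower and 8.89% in either direction. With the sequencing project in the model, which this comparison allowed, both were called and Cyr61 was called too (1.16 ± 0.37, adjusted p = 0.044). Without 24h replicate 2, with counts scaled by their totals alone, or with all left-out clusters kept, neither gene was called. Tead4 was also not called without 24h replicate 1, without 48h replicate 2, with RLE factors (another scaling of the libraries) or with the compared libraries alone.

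Ctgf and Ankrd1 rose between 48h and iXEN. This interval was the longest of the conversion. It spans the rest of the induction and the culture after doxycycline was withdrawn, with no library in between. Ctgf went from 12 and 6.2 to 191 and 529 CPM (log2 fold change 5.30 ± 0.64 SE, adjusted p = 2.42e-05), Cyr61 from 27.2 and 17.8 to 247 and 311 (log2 fold change 3.63 ± 0.46 SE, adjusted p = 3.55e-05) and Ankrd1 from 0.415 and 0.0249 to 119 and 62.1 (log2 fold change 8.85 ± 1.52 SE, adjusted p = 0.000545). The lower iXEN library, at 62.1 CPM of Ankrd1, was at least 2167-fold above the level that 3 counts would give at 9h, where none was seen. Tead1 rose to 143 and 128 CPM from 56.5 and 40.8 (log2 fold change 1.48 ± 0.24 SE, adjusted p = 0.000258). Lats2 rose to 17.9 and 20.5 CPM (log2 fold change 1.08 ± 0.24 SE, adjusted p = 0.00274).

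Amotl2, at 159 and 156 CPM, increased by less than 2-fold over this step (0.60 ± 0.20 on the log2 scale, adjusted p = 0.0333). In all, 5 members were called higher and none lower, beside 14.1% and 12.3% of all genes. With the sequencing project in the model the same 5 were called. Lats2 was not called without 48h replicate 1, without iXEN replicate 2 or with the left-out clusters kept. In the iXEN libraries the summed immediate early genes were at 921 and 892 CPM. Summed differentiating markers (20 genes) were at 502 and 304 CPM at 48h, 2418 and 2055 in iXEN and 1635 and 4267 in XEN. Krt8, Krt18 and Anxa2 of these markers were also XEN-side genes of the score used below. The sum therefore does not single out differentiating cells. The part of either list in this step was not tested.

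Against ES, 8 members were higher in iXEN and none lower, beside 25.2% and 19.6% of all genes, 44.8% in either direction. The exceptions were Yap1, at 47.2 and 55.4 CPM against 27.4 and 34.3 (0.73 ± 0.22 on the log2 scale, adjusted p = 0.0105, under 2-fold), and Tead2, at 63.7 and 28.8 against 57 and 46.6 (-0.16 ± 0.29, adjusted p = 0.647). The call on Tead4 rested on iXEN replicate 2: the libraries were at 9.27 and 26.7 CPM, and without replicate 2 the log2 fold change was -0.04. It was not made under 9 of 14 alternatives in all. The other 7 calls were made under all 14 alternatives. Summed fibroblast markers were at 21.2 and 5.59 CPM in iXEN and 5.43 and 4.71 in ES, and their part was not tested. The iXEN duplicates also differed 2.78-fold in Ctgf and 2.21-fold in Tead2, in opposite directions.

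**Figure D3:**
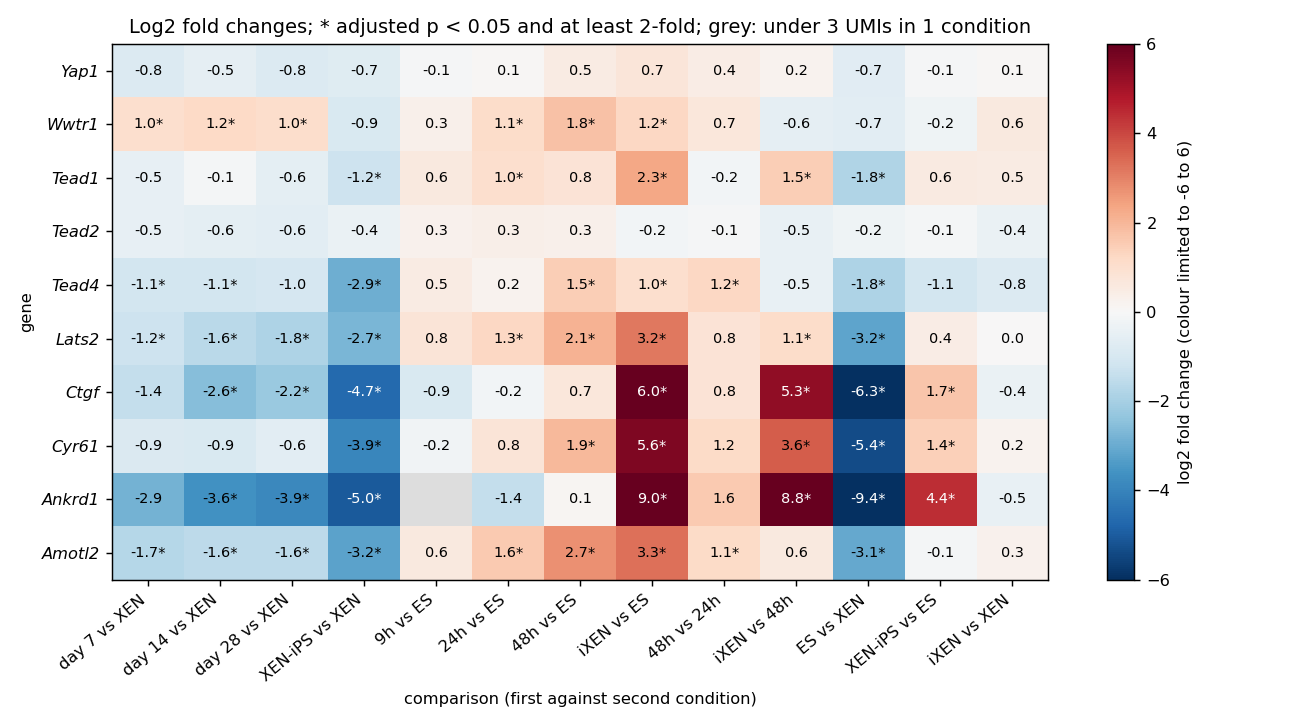
Log2 fold change of each member (rows) in each of the 13 comparisons (columns), red where the first condition was higher and blue where it was lower; asterisks mark changes with an adjusted p under 0.05 and at least 2-fold, and grey marks Ankrd1 at 9h, with 0 UMIs. Against ES, Amotl2 and Lats2 were called from 24h of induction on and Ctgf and Ankrd1 not before iXEN, and no member was called between iXEN and XEN.

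The end points were then set against the start cells of the other conversion. Between iXEN and embryo-derived XEN cells no member was called, beside 20.6% of all genes (14.9% higher and 5.67% lower), with 2 members at an unadjusted p under 0.05 and none called by DESeq2. Lats2 stood at 17.9 and 20.5 CPM in iXEN against 18.6 and 19.7 in XEN (log2 fold change 0.01 ± 0.23) and Cyr61 at 247 and 311 against 191 and 292 (0.21 ± 0.41). Ankrd1, at 119 and 62.1 against 43.8 and 206 CPM, had the widest error (-0.46 ± 1.02), so a difference of several-fold could not have been seen. Without iXEN replicate 1, the log2 fold change of Tead2 was -1.16, and without iXEN replicate 2, that of Tead4 was -1.83. Each of these fits leaves 1 iXEN library, so other conditions supply the spread. The lines differ in origin, in culture and in sequencing project, which cannot be told apart from the state of the cells.

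XEN-iPS against ES gave 3 members higher and none lower, beside 10.9% and 4.5% of all genes. They were Ctgf, at 27.3 and 9.73 CPM against 5.4 and 6.15 (log2 fold change 1.68 ± 0.55 SE, adjusted p = 0.0421), Cyr61, at 22.6 and 8.97 against 5.04 and 6.61 (log2 fold change 1.44 ± 0.42 SE, adjusted p = 0.027), and Ankrd1, at 0.835 and 6.84 against 0.369 and 0 (log2 fold change 4.41 ± 1.31 SE, adjusted p = 0.0294). The duplicates disagreed on which gene stood out: replicate 1 had the more Ctgf and Cyr61, replicate 2 the more Ankrd1. They came from different sequencing projects. XEN-iPS cells, unlike ES cells, were grown on feeders, and the lines differ in origin. The other 7 members, among them Amotl2 at 16.2 and 12.7 against 14 and 17.6 CPM, were not called.

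Summed markers of other cells are given beside these values, and between the duplicates they did not all run in the same order. The summed fibroblast markers (14 genes) were at 11.9 and 68.6 CPM in XEN-iPS, with none of the 14 at 0, against 5.43 and 4.71 in ES, with 3 of the 14 at 0 in each library. The fibroblast-like cells left out of XEN-iPS replicate 2 carried 432 CPM of Ctgf and 253 of Ankrd1. Summed endoderm markers were at 455 and 96.5 CPM in XEN-iPS and 132 and 165 in ES. Summed trophoblast markers (8 genes) were at 48.5 and 71.4 CPM in XEN-iPS, with 1 of the 8 at 0 in replicate 2, against 8.89 and 5.77 in ES, with none at 0. They were also above ES at 48h (29.8 and 18.8 CPM) and in iXEN (33.1 and 13.3), and above XEN (6.44 and 10.6) at day 28 (26.5 and 32.9). Cdx2, Gata3, Krt7 and Hand1 of these markers are also differentiating markers. In the main XEN-iPS clusters the trophoblast list had a median log2 fold of 0.26 and 0.12 over the conversion's other cells. The sums thus do not show a rise of the whole list. Counting pluripotent-side cells alone (below), Ctgf was at 24.2 and 10.7 CPM in XEN-iPS and 5.42 and 6.0 in ES, and Ankrd1 at 0.553 and 7.45 against 0.117 and 0. The part of such RNA in the calls was not tested. With the libraries of these 2 conditions alone in the model, or without ES replicate 2, no member was called, and without XEN-iPS replicate 1 or ES replicate 1, 1 was. With a replicate block Ctgf was not called. With all left-out clusters kept, 6 members were called, 5 higher and 1 lower, and the log2 fold change of Amotl2 turned to 1.47.

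Ordered by the mean of the duplicates, the conditions overlapped widely in Yap1 and Tead2. For each of them, 8 of the 9 neighbouring pairs of conditions had overlapping duplicates, and means ran only from 27.9 to 51.3 CPM for Yap1 and from 39.3 to 65.7 CPM for Tead2. Amotl2 had 3 of 9 neighbouring pairs overlapping, and Wwtr1, Tead4, Lats2 and Ctgf each had 4. Such counts depend on how close the technical duplicates lie, and they were not taken over all genes. The order for Amotl2 was iXEN at a mean of 157.5, then XEN at 131.5, 48h at 104 and 24h at 47.6 CPM, followed by day 28, day 14, day 7, 9h, ES and XEN-iPS. The pairs that overlapped were 24h with day 28, day 28 with day 14, and ES with XEN-iPS. In Ctgf the order was XEN, iXEN, day 7, day 28, day 14, XEN-iPS, 48h, ES, 24h and 9h, from 468 down to 3.07 CPM. Wwtr1 had another order, with day 14, 48h, day 28 and day 7 on top at means of 45.3 to 51.5 CPM, each overlapping the next, and XEN at 22.3 CPM below iXEN and 24h.

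Levels were next read within libraries. Each cell was placed between XEN and ES by 100 genes per side that differ between these conditions, members and genes of the Hippo, YAP target and immediate early lists left out, after thinning to 2000 UMIs. Cells with a position under 0.2 were called endoderm-side, over 0.8 pluripotent-side and the rest intermediate. The marker genes were not left out, and Gata4, Gata6, Sox17, Pou5f1, Nanog and Sox2 were among those used. So were Tinagl1, Slco2a1, Thbd and Sh3pxd2b, which are among the genes most like Cyr61 or Ctgf (below). The score rests on the contrast in which 7 members were called lower in ES. A fall of those members along it was thus largely set in advance. These are ranges of a score and not cell types. Values by range are CPM without TMM scaling, over ranges of at least 50 cells. A lower level over a range can come from fewer cells with the transcript or from less of it per cell, which sums do not tell apart.

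At day 28, when all 3 ranges were filled, most members were lowest on the pluripotent side in both duplicates. Cyr61 went from 240.2 and 259.7 CPM in endoderm-side cells to 159 and 133 in intermediate and 43.4 and 41.4 in pluripotent-side cells. The summed immediate early genes had the same order, from 2351 and 2134 to 1440 and 1017 and 736 and 579 CPM. Amotl2 had another shape, from 45.8 and 72 CPM on the endoderm side to 43.6 and 67.5 in intermediate cells, a small difference, and 15.6 and 18.3 on the pluripotent side.

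Wwtr1 had the same shape as Amotl2, with 47.9 and 77.5, 40.6 and 68.7 and 18.3 and 19.4 CPM from the endoderm to the pluripotent side. The pluripotent-side cells came nearer to those of ES in Wwtr1 (13.1 and 14.9 CPM) and in Amotl2 (14 and 17.2). They were several times above ES in Cyr61 (4.98 and 6.46 CPM in ES) and Ctgf, which stood at 35.2 and 27.7 CPM in them against 5.42 and 6.0 in ES. Endoderm markers were higher there too: the pluripotent-side cluster of day 28 held 813 and 1103 CPM of the summed markers, against 130.2 and 161 in the main cluster of ES. Their part in these levels was not tested. Ankrd1 went from 5.32 and 28.9 CPM on the endoderm side to 0.108 and 0.289 on the pluripotent side.

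Tead2 departed from this. It was highest on the pluripotent side, at 61 and 63.9 CPM, and lower in endoderm-side cells, at 32.1 and 40.1, than there. Its lowest level was in intermediate cells, at 23.6 and 30.3 CPM. Tead4, lowest on the pluripotent side like most members, was highest in intermediate cells, at 19.4 and 31.1 CPM against 11.5 and 19.3 on the endoderm side and 8.35 and 10.2 on the pluripotent side. Its 95% Poisson intervals in intermediate cells, 18 to 20.8 and 28.6 to 33.8 CPM, cover counting error only. In XEN-iPS replicate 1, the other library of this conversion with all 3 ranges, Tead4 stood at 18.9, 28.1 and 4.76 CPM from the endoderm to the pluripotent side, from 76, 80 and 3345 cells. The intervals of its endoderm-side and intermediate cells, 10.8 to 30.8 and 19.6 to 39.1 CPM from 16 and 35 UMIs, overlapped, and both lay above that of the pluripotent side. Cells differed in depth, with median UMIs of 16620 and 26970 on the endoderm side of day 28 and 31510 and 52420 on the pluripotent side.

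**Figure D4:**
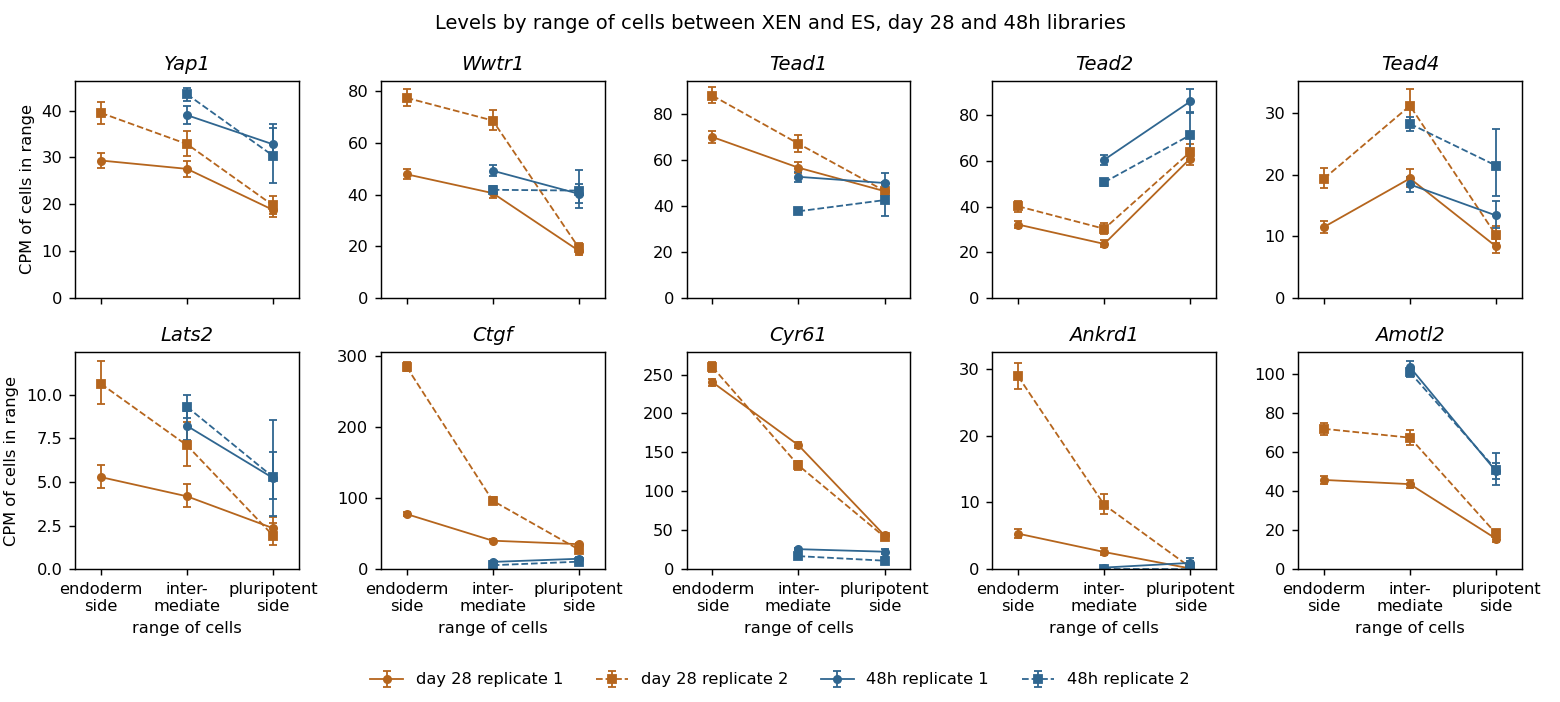
Level of each member (y axis, CPM without TMM scaling, with 95% Poisson intervals) over cells of the endoderm side, intermediate and pluripotent side (x axis) in the day 28 (brown) and 48h (blue) libraries; 48h had too few endoderm-side cells. At day 28 most members are lowest on the pluripotent side, while Tead2 is highest there and Tead4 is highest in intermediate cells.

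At 48h, intermediate cells made up 77.8% and 94.8% of the cells with at least 2000 UMIs and pluripotent-side cells 22.2% and 5.13%. Amotl2 was at 104 and 101 CPM in intermediate cells and 50.3 and 51.1 in pluripotent-side cells, and Lats2 at 8.21 and 9.3 against 5.22 and 5.28. The pluripotent-side cells of 48h therefore still held more Amotl2 than those of ES (14 and 17.2 CPM) and of 9h (21.4 and 23.8 CPM). Ctgf was lower in intermediate cells, at 10.2 and 5.56 CPM, than in pluripotent-side cells, at 14.6 and 10.6. Tead2 was again higher on the pluripotent side, with 86 and 71.3 against 60.5 and 50.6 CPM.

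In iXEN replicate 1, Tead2 went from 53.6 CPM on the endoderm side to 180.5 in intermediate and 275 in 177 pluripotent-side cells. Replicate 2 had too few pluripotent-side cells, and Tead2 stood at 31.1 and 36.3 CPM in its other ranges. The 622 differentiating-like cells of iXEN replicate 1 carried 272 CPM of Tead2, 17.2 of Ctgf and 8.69 of Ankrd1. Leaving such cells out of every condition changed no count of members called by more than 1.5-fold. Among endoderm-side cells alone, the iXEN libraries still differed in Ctgf (287 and 626 CPM) and in Tead4 (13.1 and 30.0 CPM).

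XEN cells themselves were of 2 main clusters, found without the members, and both libraries held both. The cluster led by Phlda2, Spink1 and Fgf3 had 625 and 454 CPM of Ctgf, against 249 and 359.8 in the cluster led by Mid1, Limch1 and Cryab. Amotl2 was the other way round, at 99.9 and 105 against 175 and 169 CPM, and so was Ankrd1, at 36.6 and 137 against 59.4 and 265. Yap1 stood at 46.4 and 35.8 against 69 and 50.8 CPM. In both libraries Ctgf was thus higher where Ankrd1, Amotl2 and Yap1 were lower. Cyr61, Lats2, Tead2 and, by little, Tead1 were also lower there. Tead4 went with Ctgf, at 33.2 and 33.7 against 26.4 and 24.6 CPM, and so did Wwtr1, at 24.25 and 20.9 against 20.45 and 19.3. The leading genes of the Mid1 cluster also included the Y-linked Ddx3y. Whether the clusters differ in sex chromosomes was not tested. A day 7 cluster with Mid1 and the Y-linked Eif2s3y among its leading genes held 20.7 and 38.1 CPM of Ctgf. The main day 7 cluster held 169 and 195. Yap1 was higher in the former (35.6 and 39.7 against 27.4 and 21.8 CPM) and Ankrd1 lower (3.1 and 7.68 against 14.45 and 18.9). These values describe clusters of the same cells and were not tested.

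Shares of cells with a UMI were compared after thinning each cell to 2000 UMIs, with shallower cells (72 to 691 a library) left out. Ctgf was seen in 48.8% and 46.3% of XEN cells, 10.4% and 9.83% at day 14, 5.77% and 2.81% in XEN-iPS and 1.04% and 1.23% in ES. Amotl2 was seen in 2.98% and 3.48% of ES, 10.2% and 7.49% of 24h, 14.8% and 17% of 48h and 29.3% and 22.8% of iXEN cells. Without thinning the shares of Amotl2 were 16.9% and 20.4%, 38.1% and 39.4%, 44.9% and 52.6% and 57.3% and 46.4%. Ankrd1 was seen in 6.98% and 21% of XEN cells and 9.16% and 3.64% of iXEN cells, where Ctgf was seen in 27.9% and 46.3%. Free RNA can add to such shares. Its background was not measured in these libraries, so a low share does not show that the cells expressed the gene.

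Of a wider list of Hippo core genes (26 genes, upstream kinases, scaffolds and cofactors, 25 tested), most called genes were lower in XEN-iPS than in XEN and higher in iXEN than in ES. In XEN-iPS, 2 were higher, 10 lower and 13 not called, beside 26% and 20.5% of all genes called higher and lower, with a median log2 fold change of -0.39 beside 0 over all genes. The 12 called of 25 are thus close to the 46.5% of all genes called in either direction. In iXEN against ES, 12 were higher, 2 lower and 11 not called, beside 25.2% and 19.6% of all genes called higher and lower and 44.8% in either direction, with a median of 1.02 beside 0.08. Amot, which encodes the founding angiomotin, moved early: it stood at 36.3 and 17.1 CPM in 24h against 0.602 and 0.584 in ES (5.49 ± 0.48 on the log2 scale, adjusted p = 3.83e-06), and in iXEN at 50.2 and 78.8 CPM. Ptpn14, a phosphatase that binds YAP, fell from 104.7 and 110.9 CPM in XEN to 12.6 and 14.2 in XEN-iPS (-3.01 ± 0.26, adjusted p = 2.07e-07). Wwc1, which encodes the upstream scaffold KIBRA, was higher in XEN-iPS than in XEN (2.21 ± 0.27, adjusted p = 6.32e-06) and lower in iXEN than in ES (-2.13 ± 0.27, adjusted p = 9.56e-06).

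Further genes used as YAP targets (20 genes, all tested) did not share 1 direction. In ES against XEN, 1 was higher, 11 lower and 8 not called, beside 23.5% and 22.2% of all genes called higher and lower (median log2 fold change -1.06, beside 0.03). In day 28 against XEN, 2 were higher, 8 lower and 10 not called, beside 21.6% and 8.96% of all genes called higher and lower (median -0.76, beside 0.08). Nppb, which encodes a natriuretic peptide, was at 1.77 and 3.09 CPM in day 28 against 28.3 and 50.7 in XEN (-4.03 ± 0.77 on the log2 scale, adjusted p = 0.000849), while Fstl1, a secreted glycoprotein gene, was at 38.4 and 56 CPM in day 28 against 7.62 and 8.63 in XEN (2.54 ± 0.45, adjusted p = 0.000438).

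Between 48h and iXEN, 10 of these 20 rose, 1 fell and 9 were not called, beside 14.1% and 12.3% of all genes called higher and lower (median 1.95, beside 0.01). Thbs1, which encodes the matrix protein thrombospondin, stood at 152 and 217 CPM in iXEN against 1.26 and 0.76 in 48h (7.53 ± 1.09, adjusted p = 0.000112), and Crim1, a transmembrane regulator of growth factors, at 308 and 384 CPM in iXEN against 9.57 and 7.79 in 48h (5.32 ± 0.38, adjusted p = 3.01e-07). At 24h, 3 were higher and 2 lower than in ES, with 15 not called, beside 7.67% and 3.85% of all genes. Foxf2, a forkhead factor gene seen with 1 UMI in each ES library, had the largest rise at 48h, at 3.77 and 7.42 CPM in 48h against 0.00971 and 0.00823 in ES, and Gadd45a, a stress-response gene, the largest fall, at 7.42 and 4.84 CPM in 48h against 81.2 and 72.2 in ES.

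The immediate early genes (12 genes, all tested) were 0 higher, 3 lower and 9 not called at 48h against ES, beside 18% and 13.1% of all genes called higher and lower. The 3 called of 12 are a smaller share than the 31.1% of all genes called in either direction. In iXEN against 48h, 9 were higher, 0 lower and 3 not called, beside 14.1% and 12.3% of all genes. At day 28 against XEN, 7 were higher, 0 lower and 5 not called, beside 21.6% and 8.96% (median 1.87, beside 0.08). Egr1, a zinc-finger factor gene, stood at 141 and 97.6 CPM in day 28 against 0.89 and 3.23 in XEN. Atf3, which encodes a stress-induced bZIP factor, stood at 81.2 and 123 CPM in iXEN against 1.53 and 0.585 in 48h.

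**Figure D5:**
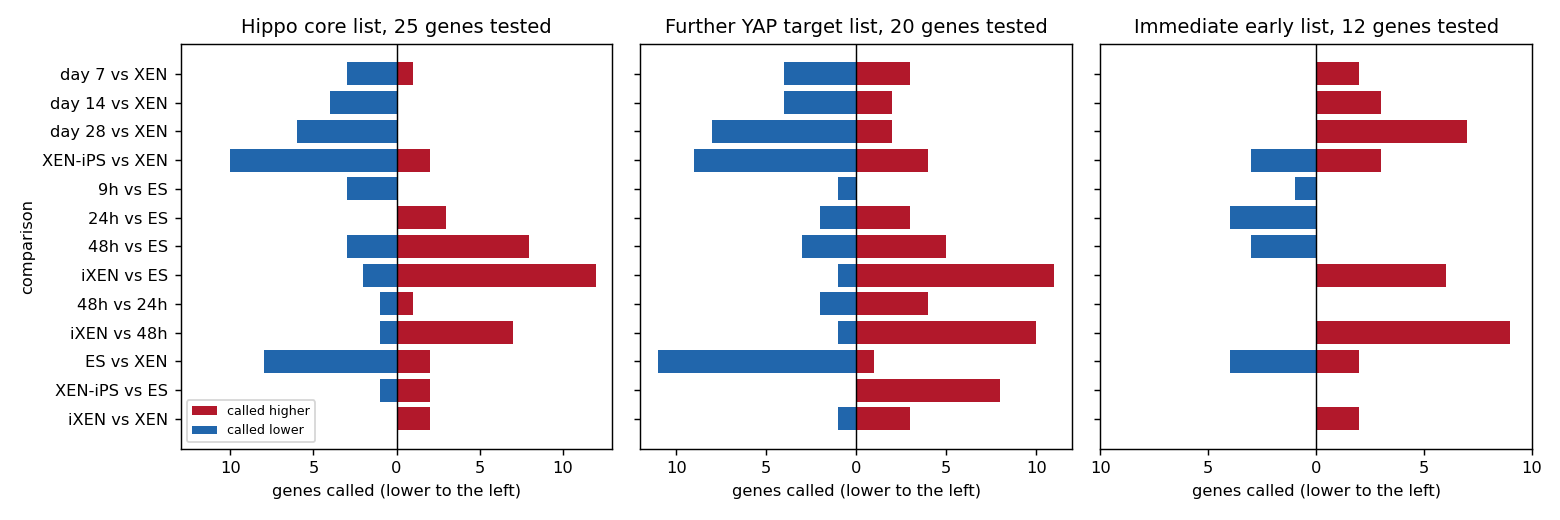
Number of genes called higher (red, right) and lower (blue, left) in each of the 13 comparisons (y axis) for the Hippo core, further YAP target and immediate early lists. The lists shift to higher in iXEN against ES and against 48h, and at day 28 against XEN 7 immediate early genes are called higher and 0 lower.

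The genes most like each member were sought over the 20 libraries, as the highest Pearson r of log2(CPM + 1) among 3808 genes that reached a condition mean of 50 CPM. The libraries are technical duplicates of 10 conditions and many genes separate endoderm from pluripotent cells, so these values only describe likeness. Cyr61 was most like Tinagl1 (r = 0.982), Crim1 (0.981) and Slco2a1 (0.975), and Ctgf most like Fhl1 (0.965), Sh3pxd2b (0.963) and Thbd (0.963). Amotl2 and Lats2 shared Cttn, the gene of the actin-binding protein cortactin, as their closest gene (r = 0.971 and 0.946), and Amotl2 was itself the second for Lats2 (0.945). Ankrd1 was closest to Dusp3 (0.953), Palld (0.94) and Fhl1 (0.938). Wwtr1 was closest to Plekhb2 (0.948), Tead1 to Sesn3 (0.94) and Yap1 to Fam168b (0.918). For Tead4 the closest was Ahnak (0.884), also the second for Amotl2, and for Tead2 the closest was Bak1 (0.815), with Lin28a (0.78), a gene of pluripotent cells, as the second.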

How the data were processed

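Cells were profiled by droplet 3′ single-cell RNA sequencing. The authors deposited UMI counts per cell and gene symbol, made with SEQC on GRCm38 (mm10 in the submitters' processing notes), with barcodes and UMIs corrected and cells above a limit of mitochondrial molecules removed. The SEQC version is not given in the sources used here. The members and gene lists were chosen with earlier results of these data known.

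Cells with at least 500 genes were clustered per conversion without the members (scanpy 1.11.5, leidenalg 0.10.2, 30 neighbours, resolution 1), and clusters holding fibroblast, 2-cell or, in ES, differentiating markers were left out. Doublets were not removed in the main analysis. UMIs were summed per library and tested with edgeR 4.0.16 (quasi-likelihood, TMM, filterByExpr) in 1 model of 20 libraries and 10 condition means with 10 residual degrees of freedom, with Benjamini-Hochberg adjustment over 16720 genes. Genes with an adjusted p under 0.05 and at least a 2-fold change were called. SEs were derived from the fold change and the F statistic. Alternatives were RLE factors, total counts, no filter, DESeq2 1.42.0, other cell selections, a replicate or sequencing project block, the compared libraries alone, and each library left out. A fit with a library left out leaves 1 library in its condition, so calls in it rest on the spread of other conditions. The test was also run on simulated counts, and the outcome is not given here. Genes named from the lists were the 2 highest and 2 lowest folds among called genes of a comparison. Intervals are 95% Poisson intervals and, like the limit of 3 counts for a count of 0, cover counting error only. Without a strand setting in the sources used here, reads of overlapping genes may be shared.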

Additional observations from a re-analysis of the deposited data

Results flagged for a closer look

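Cells left out of the sums were looked at separately, and a member is given here where a library's left-out cells (at least 50) held at least 10 times its level in the kept cells of the same library, with at least 10 UMIs. All values are CPM without TMM scaling, from 1 library each, and none was tested. No test for outlying samples was run, because groups of 2 libraries do not show which of the 2 departs.

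Fibroblast-like cells carried high levels of the targets. In XEN-iPS replicate 2 they held 432 CPM of Ctgf against 11.2 in the kept cells, 324 of Cyr61 against 10.4, and 305 of Amotl2 against 14.7. Their Ankrd1 stood at 253 CPM and their Lats2 at 124. In XEN-iPS replicate 1 the fibroblast-like cells held 199 CPM of Ankrd1, 200.2 of Amotl2, 102 of Lats2 and 93 of Wwtr1. Ankrd1 also stood at 178 CPM in those of day 7 replicate 1 and 132 in those of day 28 replicate 1, where Lats2 stood at 41.5.

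The unnamed clusters with fibroblast markers met the rule for Ankrd1 alone. It stood at 372 CPM in those of XEN-iPS replicate 1 against 0.889 in the kept cells, and at 336 in those of replicate 2 against 7.9. It stood at 213 CPM in those of day 7 replicate 1 against 14, and at 150.3 in those of day 28 replicate 1 against 3.07.

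Differentiating-like cells of ES replicate 1 held 284 CPM of Cyr61 against 5.04 in the kept cells, 76.6 of Ctgf against 5.4, 41.5 of Ankrd1 against 0.369, and 26.3 of Lats2 against 1.98. In ES replicate 2 no member met this rule. Such cells there held 47.3 CPM of Cyr61 against 6.48 in the kept cells, 15.9 CPM of Ctgf against 6.03 and 2.85 CPM of Lats2 against 2.25, with 6 UMIs of Ankrd1 against 0.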

How the results depend on the processing

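Each comparison was recomputed under other normalizations, filters, cell selections, models and tools, and with each library of its conditions left out in turn. The number of members called moved by over 1.5-fold with RLE factors 1 in 48h vs 24h, with total counts alone 0 in 48h vs 24h, with the left-out clusters kept 2 in day 7 vs XEN, 4 in XEN-iPS vs XEN, 0 in 24h vs ES, 0 in 48h vs 24h and 6 in XEN-iPS vs ES, with the compared libraries alone 1 in 48h vs 24h and 0 in XEN-iPS vs ES and by DESeq2 1 in 9h vs ES. With 1 library left out it ran from 2 to 3 in day 7 vs XEN, 3 to 5 in day 14 vs XEN, 3 to 5 in day 28 vs XEN, 6 to 8 in XEN-iPS vs XEN, 0 in 9h vs ES, 1 to 3 in 24h vs ES, 4 to 5 in 48h vs ES, 7 to 8 in iXEN vs ES, 0 to 2 in 48h vs 24h, 4 to 6 in iXEN vs 48h, 7 in ES vs XEN, 0 to 2 in XEN-iPS vs ES and 0 to 1 in iXEN vs XEN. The duplicates share replicate numbers, but samples with the same number did not deviate together in every comparison (r of deviations from -0.15 to 0.41), so they were not taken as pairs. With a replicate block, 6 members were called in day 28 vs XEN (Tead4 added), 7 in iXEN vs ES (Tead4 lost) and 2 in XEN-iPS vs ES (Ctgf lost), and no other member call changed. Without TMM factors the log2 fold changes of all genes shift together, by 0.38 in iXEN vs 48h, 0.31 in iXEN vs XEN, 0.27 in iXEN vs ES and 0.21 in XEN-iPS vs XEN and by less elsewhere, so changes are given relative to the TMM scale. Over all genes, 1205 were called in 24h vs ES with the left-out clusters kept (1927 as reported), 970 were called in 48h vs 24h with the left-out clusters kept (1487 as reported), 2480 were called in 9h vs ES with the compared libraries alone (951 as reported), 565 were called in 48h vs 24h with the compared libraries alone (1487 as reported), 2838 were called in iXEN vs 48h with the compared libraries alone (4408 as reported) and 604 were called in XEN-iPS vs ES with the compared libraries alone (2574 as reported). With 1 library left out, 1683 to 2865 were called in day 7 vs XEN, 1811 to 2539 were called in day 14 vs XEN, 1927 to 3003 were called in iXEN vs XEN, 142 to 303 were called in 9h vs ES, 856 to 1450 were called in 24h vs ES, 1009 to 2794 were called in XEN-iPS vs ES and 405 to 1601 were called in 48h vs 24h. Log2 fold changes that changed sign were, with RLE factors, 0.07 for Yap1 in XEN-iPS vs ES. With total counts alone, 0.15 for Tead2 in iXEN vs ES, 0.03 for Amotl2 in XEN-iPS vs ES, 0.03 for Tead2 in XEN-iPS vs ES and 0.13 for Yap1 in XEN-iPS vs ES. Without a filter on low counts, -0.05 for Lats2 in iXEN vs XEN and -0.002 for Yap1 in iXEN vs XEN. With the left-out clusters kept, 0.21 for Lats2 in XEN-iPS vs XEN, 0.10 for Wwtr1 in XEN-iPS vs XEN, -0.83 for Cyr61 in 24h vs ES, -3.08 for Ankrd1 in 48h vs ES, 1.47 for Amotl2 in XEN-iPS vs ES, 0.64 for Wwtr1 in XEN-iPS vs ES, 0.12 for Yap1 in XEN-iPS vs ES, -0.06 for Lats2 in iXEN vs XEN and -0.01 for Yap1 in iXEN vs XEN. Without differentiating-like cells, -0.38 for Ankrd1 in 48h vs ES. With the compared libraries alone, -0.001 for Lats2 in iXEN vs XEN. By DESeq2, 0.06 for Yap1 in XEN-iPS vs ES. Leaving out 1 library at a time gave log2 fold changes of both signs, from the lowest to the highest value, for Cyr61 in iXEN vs XEN (-0.08 to 0.45), Lats2 in iXEN vs XEN (-0.15 to 0.03), Ankrd1 in iXEN vs XEN (-1.19 to 0.96), Yap1 in iXEN vs XEN (-0.15 to 0.17), Tead2 in XEN-iPS vs ES (-0.30 to 0.05), Wwtr1 in XEN-iPS vs ES (-0.86 to 0.22), Yap1 in XEN-iPS vs ES (-0.21 to 0.15) and Amotl2 in XEN-iPS vs ES (-0.30 to 0.07). It also did so for Ankrd1 in 24h vs ES (-2.55 to 5.38), Yap1 in 24h vs ES (-0.17 to 0.24), Yap1 in 9h vs ES (-0.22 to 0.09), Ankrd1 in 48h vs ES (-2.84 to 6.93), Tead1 in 48h vs 24h (-0.46 to 0.005), Ctgf in 24h vs ES (-0.71 to 0.17), Tead2 in 48h vs 24h (-0.28 to 0.07) and Ankrd1 in 48h vs 24h (-1.33 to 2.63), and for Tead4 in iXEN vs 48h (-1.43 to 0.08), Ctgf in iXEN vs XEN (-1.35 to 0.10), Tead2 in iXEN vs ES (-0.97 to 0.19), Tead4 in iXEN vs ES (-0.04 to 1.47) and Tead2 in iXEN vs XEN (-1.16 to 0.004). For Ankrd1 in 9h vs ES they ran from -7.91 to 0, with no value of the other sign. Over the log2 fold changes of members under all alternatives, 1707 kept their sign and their side of the call, 79 lost the call and 20 gained one with the same sign. Without TMM scaling, 23 condition levels of members moved by more than the SD of the duplicates and 77 did not. Thinning to 3000 UMIs, which keeps more of each cell, moved 182 shares of cells with a UMI beyond their intervals and 18 not. With 50 axis genes per side or limits of 0.3 and 0.7, 145 levels by position moved beyond their intervals and 585 did not. The causes of these changes were not tested. The doublets of the planned automatic Scrublet threshold were not left out, because it marked very few cells in nearly every library. A fixed share of cells by doublet score was used in its place, chosen after seeing the data, as was leaving differentiating-like cells out of every condition. Neither moved the number of members called by over 1.5-fold. With 2 libraries per condition, the log2 fold changes of Ankrd1, Ctgf and Cyr61 had the largest SEs.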
